A study of Drosophila ananassae with 22 samples.

Results

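The 8 genes described here are maternal genes of the germ plasm and of the anterior-posterior axis: *osk* (FBgn0003015), *nos* (FBgn0002962), *bcd* (FBgn0000166), *pgc* (FBgn0016053), *gcl* (FBgn0005695), *tud* (FBgn0003891), *stau* (FBgn0003520) and *BicD* (FBgn0000183). The choice rule lists them by name and uses no measured value, and all 8 of the 8 listed genes had a row among the 8758 rows of the gene table. The rows carry *D. melanogaster* gene identifiers, to which the authors assigned the *D. ananassae* genes. All embryos were whole *Drosophila ananassae* embryos of the strain In(3R)A, the reference genome strain, with no treatment given and differing only in age. They were collected in windows of 1 hr over 22 time points, from 0-1 hr to 21-22 hr after egg laying, in population cages. Each time point is 1 RAMPAGE sample with its own barcode, called a library here, and all of them were pooled for the later steps of preparation. RAMPAGE sequences cDNAs reaching the capped 5′ end of the transcript, so that every read marks a transcription start site.

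In *D. melanogaster* the mother loads the egg with RNAs that set up both ends of the body axis. The posterior pole holds the germ plasm, which specifies the pole cells, the precursors of the germ line, while *bcd* RNA at the anterior pole encodes a homeodomain protein that patterns the head and thorax. Most maternal RNAs are cleared as the embryo begins its own transcription, and RNAs within the pole cells can be protected from this clearance.

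Expression is given as RPM, reads of a start site scaled to the depth of its library. At 7-8 hr the library held 600 reads, and it is left out of all values below unless named. The other 21 libraries held 1211764 to 12595472 reads, and 1 read was worth between 0.0794 and 0.825 RPM. The limit of detection was set at 3 reads, or 0.238 to 2.48 RPM depending on the library. Intervals for single libraries are exact 95% Poisson intervals and cover counting error only. For a count of 0 they reach above this limit, to 2.54 RPM against 2.06 RPM for *nos* at 5-6 hr. With 1 library per time point, tests compare windows of neighbouring time points (0-3, 3-6, 6-10, 10-13, 13-16, 16-19 and 19-22 hr), and the spread within a window includes real change with age. In whole embryos, fewer cells with a transcript and less transcript per cell cannot be told apart.

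The genes that act at the posterior pole came first. *osk*, whose protein nucleates the germ plasm in *D. melanogaster*, stood at 953 RPM at 0-1 hr, 1099 RPM at 1-2 hr and 977 RPM at 2-3 hr. It was at 118 RPM at 3-4 hr, 93.1 RPM at 4-5 hr and 79.8 RPM at 5-6 hr. The 3 earliest libraries were thus all above every later one, and the highest of them (interval 1073 to 1124 RPM) did not overlap in counting error with the second highest (950 to 1005 RPM). In the 15 libraries after 6 hr, *osk* ranged from 15.1 to 58.4 RPM with a median of 31.9 RPM, which is 3.16% of its mean in the first 3 hr. These late levels rested on 2566 reads and no library was at 0.

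*nos*, a translational repressor that specifies the abdomen and acts in the germ line, was at 86.2 RPM at 0-1 hr, 81.4 RPM at 1-2 hr and 26.6 RPM at 2-3 hr. It dropped to 3.42 RPM at 3-4 hr and 4.35 RPM at 4-5 hr, with 0 reads at 5-6 hr. After 6 hr it lay between 0 and 2.65 RPM, and over the 21 libraries it had 0 reads in 5 and no more than 3 reads in 10. *nos* was therefore close to the limit of detection in the later embryo.

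*pgc*, a small protein that silences transcription in the pole cells, was at 396 RPM at 0-1 hr, 292.5 RPM at 1-2 hr and 160.4 RPM at 2-3 hr. It was at 24.8 RPM at 3-4 hr, 6.09 RPM at 4-5 hr and 8.25 RPM at 5-6 hr. Each of the first 4 collections was lower than the one before. After 6 hr *pgc* had a median of 1.33 RPM, or 0.469% of its mean in the first 3 hr, on 108 reads in all.

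*bcd* differed from these in what was left later. It was at 365 RPM at 0-1 hr, 538 RPM at 1-2 hr and 533 RPM at 2-3 hr, and the last 2 of these overlapped in counting error. It was at 117 RPM at 3-4 hr, 138 RPM at 4-5 hr and 110.0 RPM at 5-6 hr. After 6 hr it ranged from 6.63 to 148 RPM with a median of 74.9 RPM, 15.6% of its mean in the first 3 hr, on 5379 reads.

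The lowest *bcd* value came from a single library. At 12-13 hr *bcd* had 10 reads, or 6.63 RPM, between 148 RPM at 11-12 hr and 137 RPM at 13-14 hr. On the log2(RPM + 1) scale the 12-13 hr value minus the mean of its neighbours was -4.23. Among the 7207 genes tested, 2 lay as far below or further, *bcd* included, and the median over all genes was -0.02. The same library had 58.4 RPM of *osk* and 232 RPM of *tud*, both above the mean of their neighbours on that scale. Less far below their neighbours in it were *pgc* (-0.93, on 2 reads), *stau* (-0.54) and *gcl* (-0.18).

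**Figure D1:**
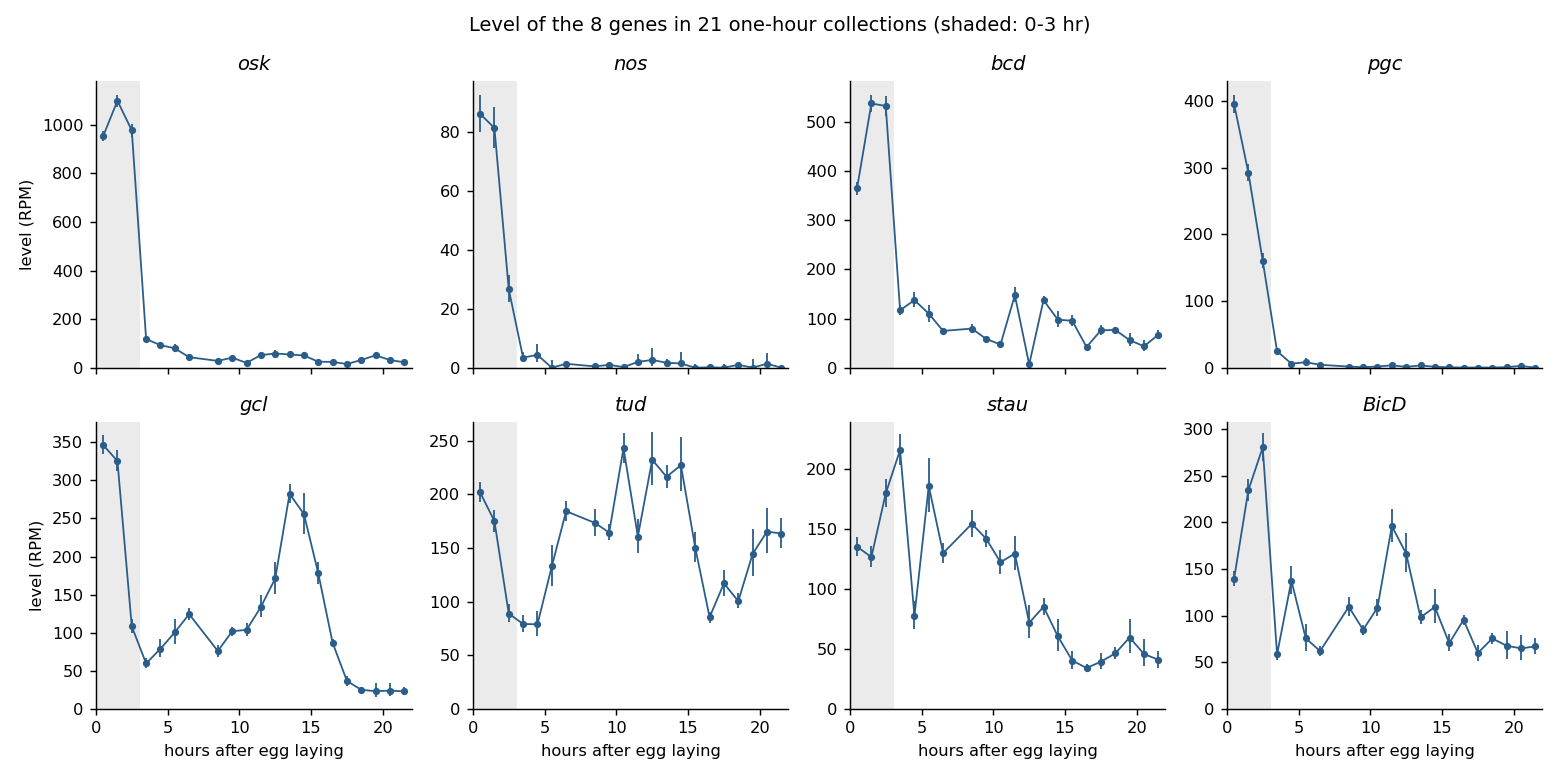
Level of each gene in RPM (vertical axis, from 0, a different scale in each panel) against hours after egg laying, 1 point per library for 21 libraries, with exact 95% Poisson intervals as bars and 0-3 hr shaded. *osk*, *nos*, *bcd* and *pgc* have their highest values in the shaded hours, *gcl*, *tud* and *BicD* have further high values between 10 and 15 hr, and *bcd* has 1 low point at 12-13 hr.

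*gcl*, a germ-cell-less protein of the nuclear envelope needed to form pole cells, had an early and a late phase. It was at 346 RPM at 0-1 hr, 325 RPM at 1-2 hr and 108 RPM at 2-3 hr, and reached a low of 59.6 RPM at 3-4 hr. It then stood at 282 RPM at 13-14 hr and 256 RPM at 14-15 hr before lying between 22.8 and 24.9 RPM in the last 4 libraries. In RPM the later peak was below the earliest value, whose interval, for counting error only, was 334 to 359 RPM. TMM normalization, which rescales libraries so that most genes are level, divides 0-1 hr by 1.52, 13-14 hr by 1.13 and 14-15 hr by 0.896. The order of the early and late values of *gcl* therefore depends on the scaling.

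*tud*, a scaffold protein of the polar granules, was at 202 RPM at 0-1 hr and lowest at 78.8 RPM at 4-5 hr. Its highest value was 243 RPM at 10-11 hr, and 2 other libraries overlapped it in counting error. After 6 hr its median was 164 RPM, 106% of its mean in the first 3 hr. This percentage and the place of the highest value hold in RPM and depend on the scaling. The factors by which TMM normalization divides were 1.52 at 0-1 hr, 1.12 at 10-11 hr and 0.896 at 14-15 hr.

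The remaining genes act in RNA transport. *stau*, a double-stranded RNA-binding protein that localizes *osk* and *bcd* RNA, was at 135 RPM at 0-1 hr and highest at 216 RPM at 3-4 hr. It was at 77.5 RPM at 4-5 hr and 186 RPM at 5-6 hr, so neighbouring libraries differed by more than counting error. Its level lay between 34.0 and 59.4 RPM in the 7 libraries from 15 to 22 hr.

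*BicD*, an adaptor between RNA cargo and the dynein motor, was at 139 RPM at 0-1 hr, 235 RPM at 1-2 hr and 281 RPM at 2-3 hr. It was lowest at 58.4 RPM at 3-4 hr and reached 196 RPM at 11-12 hr. In the last 3 libraries, each of a different age, it had a mean of 66.5 RPM ± 1.46 (SD, n = 3). This SD is smaller than counting error and is no measure of precision. The counting intervals were 53.8 to 84.0, 52.5 to 79.3 and 58.5 to 76.2 RPM at 19-20, 20-21 and 21-22 hr.

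The share of a gene's expression that falls in the first 3 hr sets the genes in order. It was computed as the RPM of these 3 libraries over the RPM of all 21, so an even level would give 14.3%. The share was 93.2% for *pgc* (95% counting interval 92.2 to 94.1%), 90.2% for *nos* (87.9 to 92.6%) and 78.3% for *osk* (77.5 to 79.0%). It was 49.4% for *bcd*, 29.3% for *gcl*, 27.7% for *BicD*, 20.8% for *stau* and 14.2% for *tud*. With the 7-8 hr library included, the share of *bcd* was 31.4%, on the strength of 1 read.

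The shares lay from the middle to the top of the table. The median over the 7207 genes that reached 10 RPM in at least 1 library was 17.0%, and 285 of them (3.95%) had over 50% of their expression in the first 3 hr, as *pgc*, *nos* and *osk* did. Only 0.569% of genes had a higher share than *pgc*, whereas 57.0% had a higher share than *tud*. With TMM normalization, which rescales libraries so that most genes are level, the share of *bcd* was 41.6% and that of *osk* 73.1% while the order of the 8 genes was the same.

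**Figure D2:**
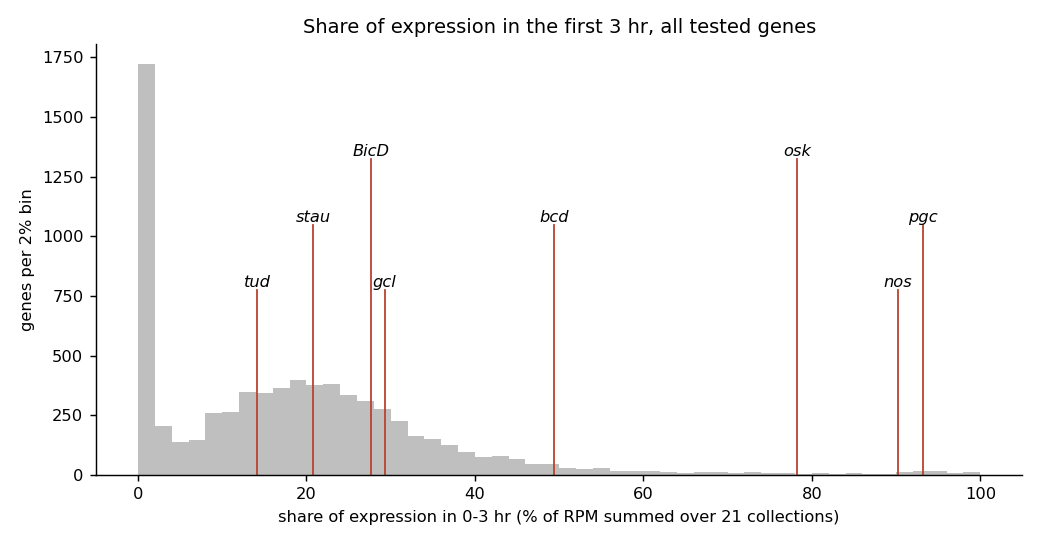
Histogram of the share of expression in 0-3 hr (horizontal axis, % of RPM summed over 21 libraries; vertical axis, genes per bin) for all 7207 tested genes, with the 8 genes marked by lines whose heights carry no value. *pgc*, *nos* and *osk* lie in the sparse right tail, *bcd* at 49.4%, and the others within the bulk of genes.

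Change with time was tested for every gene that reached 10 RPM, with limma, as a natural spline of age fitted to log2(RPM + 1). All 8 genes passed at a Benjamini-Hochberg adjusted p under 0.05, beside 92.9% of all 7207 genes, so passing this test says little about the group. Adjusted p was lowest for *pgc* (1.16e-11) and highest for *tud* (0.00867) and *BicD* (0.00832). The call for *BicD* was lost with TMM normalization (adjusted p = 0.223) and in edgeR (0.167), and that for *tud* with a stiffer spline of 3 degrees of freedom (0.612).

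From 0-3 to 3-6 hr, the interval that spans the handover from maternal to embryonic transcription, 6 of the 8 genes fell and 0 rose. Over all genes 16.1% were lower and 14.7% higher at the same threshold. At an unadjusted p under 0.05 the counts were also 6 and 0, as they were in edgeR. No share over all genes was computed at the unadjusted threshold, here or in the comparisons below. The median difference over the 8 genes was -1.75 on the log2(RPM + 1) scale, against 0.01 over all genes. With TMM normalization the median of all genes was 0.16, and in edgeR 991 genes were lower and 1481 higher, instead of 1160 and 1057.

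The largest falls of the group on this scale, by limma, were -4.48 for *pgc* (SE 0.547, adjusted p = 6.25e-06), -4.34 for *nos* (SE 0.613, adjusted p = 2.50e-05) and -3.38 for *osk* (SE 0.416, adjusted p = 6.39e-06). The value for *nos*, which was near 0 after 3 hr, depended on the pseudocount: it was -5.62 with 0.1 RPM and -3.10 with 5 RPM, where the fall of *osk* was the larger (-3.33), and it was -3.58 without the 5-6 hr library. In RPM, the mean of 0-3 hr was 21.7, 25.0 and 10.4 times that of 3-6 hr for *pgc*, *nos* and *osk*. These 3 calls held when any single library was left out, and that of *osk* was lost when the 7-8 hr library was included (adjusted p = 0.0704). All 3 lay below the central 90% of genes, whose lower bound was -2.14.

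The differences in limma were -1.95 for *bcd* (SE 0.633, adjusted p = 0.0237), -1.55 for *gcl* (SE 0.443, adjusted p = 0.0108) and -1.29 for *BicD* (SE 0.362, adjusted p = 0.00945). The libraries of the 2 windows did not overlap for any of the 6 genes called. This adds no support to the calls, which rest on the same libraries, and overlap was not counted over all genes. These 3 calls were less stable: *bcd* missed the threshold without 1-2 hr (adjusted p = 0.0740), 2-3 hr (0.0514), 3-4 hr (0.0569) or 5-6 hr (0.0668), *gcl* without 0-1 hr (0.0669) or 1-2 hr (0.0649), and *BicD* without 3-4 hr (0.0584). Without the 12-13 hr library, in which *bcd* was low, its SE was 0.371 and its adjusted p 0.000519.

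*stau* and *tud* did not pass. The difference for *stau* was 0.01 ± 0.77 (half-width of the 95% interval), and *stau* happened to be the median gene of the whole table in this comparison. For *tud* it was -0.64 ± 0.68 (adjusted p = 0.149), and -0.99 without the 2-3 hr library (adjusted p = 0.0189).

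**Figure D3:**
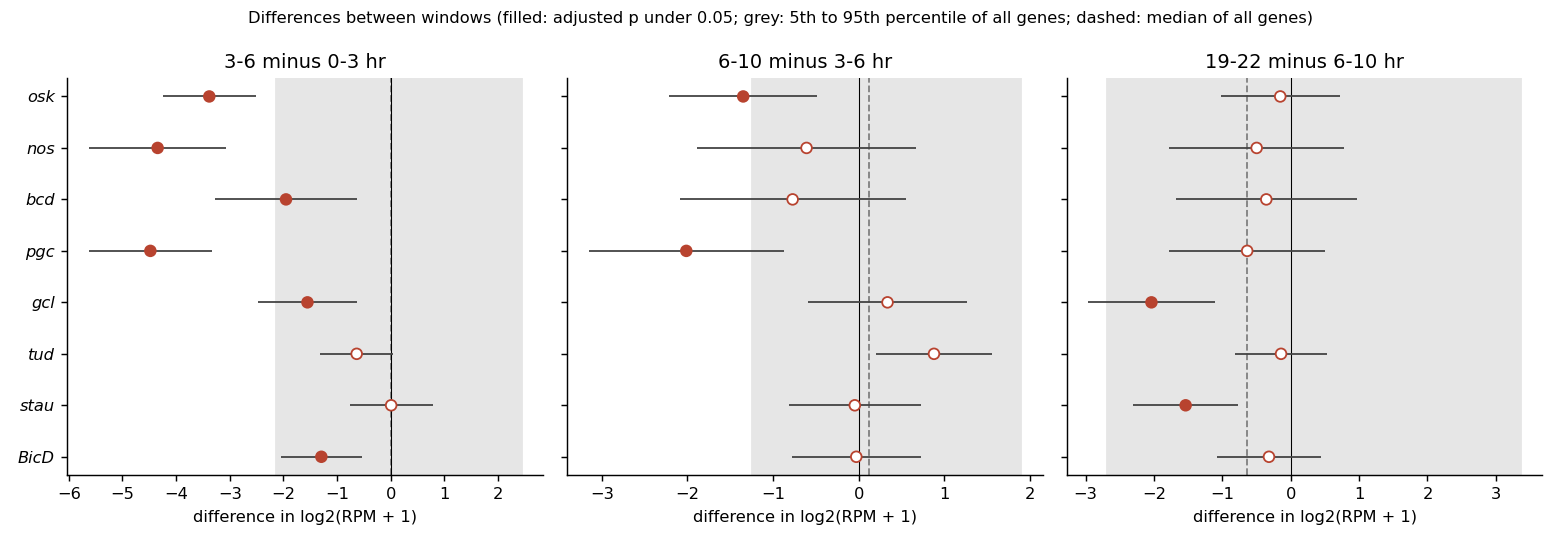
Difference between windows in log2(RPM + 1) (horizontal axis, later minus earlier) for each gene, with 95% intervals from limma, filled points at adjusted p under 0.05, the 5th to 95th percentile of all genes in grey and their median dashed. From 0-3 to 3-6 hr *osk*, *nos* and *pgc* lie outside the grey band, and from 6-10 to 19-22 hr only *gcl* and *stau* are filled.

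From 3-6 to 6-10 hr, 2 of the 8 genes fell further and 0 rose, beside 4.05% of all genes lower and 11.3% higher. The differences in limma were -2.01 for *pgc* (SE 0.547, adjusted p = 0.0195) and -1.35 for *osk* (SE 0.416, adjusted p = 0.0340). The mean of *osk* was 96.9 RPM ± 19.4 (SD, n = 3) at 3-6 hr and 37.6 RPM ± 8.31 (SD, n = 3) at 6-10 hr. Its libraries did not overlap between the windows, and neither did those of *pgc*, *bcd* and *tud*. Of these, *bcd* (adjusted p = 0.438 in limma) and *tud* were not called, and overlap was not counted over all genes. The calls of *pgc* and *osk* were both lost without the 3-4, 8-9 or 9-10 hr library, where adjusted p lay between 0.0737 and 0.145. That of *osk* was also lost without 4-5 hr (0.0861), and that of *pgc* also with a pseudocount of 0.1 RPM (0.0782). *tud* went from 96.9 RPM ± 31.1 to 174 RPM ± 9.95 (SD, n = 3 each), with a difference of 0.88 (adjusted p = 0.0701, unadjusted p = 0.0134, the 1 higher difference under 0.05 before adjustment). In edgeR the counts were again 2 and 0, beside 307 of all 7207 genes lower and 895 higher.

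From 6-10 to 19-22 hr, 2 of the 8 genes fell and 0 rose, beside 39.1% of all genes lower and 17.8% higher, so 2 of 8 is no more than the share over the table. At an unadjusted p under 0.05, and in edgeR, the counts were the same. Over all 7207 genes edgeR gave 1682 lower and 1588 higher. The differences in limma were -2.04 for *gcl* (SE 0.443, adjusted p = 0.000690) and -1.54 for *stau* (SE 0.370, adjusted p = 0.00163). Mean *gcl* went from 101 to 23.3 RPM and mean *stau* from 142 to 48.7 RPM. Both calls held when any single library was left out and with TMM normalization.

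This comparison depends on the scaling. The median over all genes was -0.64 in RPM and -0.20 with TMM normalization, where 1791 genes were lower and 1658 higher instead of 2821 and 1285. Relative to the median of all genes in RPM, *gcl* was lower by -1.40 and *stau* by -0.90. The small negative differences of *osk*, *bcd*, *tud* and *BicD*, none of which passed, were positive with TMM normalization (0.32, 0.13, 0.35 and 0.17).

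The start site clusters (TSCs, groups of neighbouring start sites called on the pooled series) locate the promoters. Coordinates are those of the *D. ananassae* r1.3 assembly. The reads of 5 genes equalled, in every library, the summed reads of the TSCs of 1 *D. ananassae* gene. *osk* corresponded to FBgn0094710, with its main TSC at scaffold_13340:3511154-3511307 on the plus strand. *nos* corresponded to FBgn0083867 at scaffold_13340:23416774-23416926 on the minus strand, and *bcd* to FBgn0094811 at scaffold_13340:5462576-5462732 on the plus strand. *pgc* corresponded to FBgn0088922 at scaffold_13266:7539474-7539666 and *gcl* to FBgn0089416 at scaffold_13266:1410149-1410234, both on the minus strand.

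The other 3 genes had no equal sum. The nearest gene differed by 41 reads for *tud* (0.262% of its reads; FBgn0089835, main TSC scaffold_13266:4844137-4844244, plus strand) and by 90 reads for *stau* (0.839%; FBgn0090236, scaffold_13266:10185847-10185950, plus strand). *BicD* resembled no gene, and its nearest TSC was one that the authors attributed to no gene, at scaffold_12916:3407943-3408087 on the plus strand, differing by 224 reads (1.94%). These 3 placements were chosen after the values were seen and rest on the likeness of reads alone.

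Each of the 7 genes with attributed TSCs was read mostly from 1 promoter, for *tud* and *stau* by the placements above. *BicD* was placed at a single TSC, so no such share can be given for it. The main TSC held 99.8% of the reads of *bcd*, 99.5% of *gcl*, 98.5% of *tud*, 96.7% of *stau*, 93.6% of *osk* and of *pgc*, and 90.9% of *nos* (Wilson 95% interval 89.4 to 92.3%). The 7 genes with attributed TSCs had 20 of them, 13 with at least 100 reads and 10 with at least 5% of their gene's reads. The main TSCs, that of *BicD* included, were 86 to 193 bp wide with a median of 149 bp, against a median of 91 bp (quartiles 57 and 128) for the 9023 genes whose main TSC had at least 100 reads. The main TSCs described here held from 1344 reads (*nos*) to 22125 reads (*osk*), and widths were not compared at matched read numbers.

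TSCs with at least 5% of the reads besides the main one were found for *osk*, *nos* and *pgc*. The second TSC of *osk* (scaffold_13340:3512080-3512273) started 926 bp downstream of the main one and held 5.78% of reads. That of *nos* (scaffold_13340:23415695-23415722) lay 1204 bp downstream with 9.07%, and that of *pgc* (scaffold_13266:7537662-7537668) 1998 bp downstream with 6.40%. No gene models of this assembly were used here, so whether these sites are exonic or intronic is not given.

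By window, the share of the second TSC of *osk* was highest at 10-13 hr, with wide scatter between libraries. It was 5.06% of 20149 reads at 0-3 hr (Wilson 95% interval 4.77 to 5.37%), 8.08% at 3-6 hr and 11.3% at 6-10 hr. At 10-13 hr it was 18.8% of 320 reads (14.9 to 23.4%). The share was then 9.61% at 13-16 hr, 6.44% at 16-19 hr and 9.24% at 19-22 hr. Single libraries ranged from 0.862% at 5-6 hr to 25% at 11-12 hr, and it was 4.55% at 12-13 hr, so libraries 1 hr apart differed as much as windows did. For *pgc* the share was 6.49% at 0-3 hr and 6.04% at 3-6 hr, and 0 of 49 reads at 6-10 hr (upper bound 7.27%). For *nos* the windows after 3 hr held 2 to 27 reads, too few to compare.

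A TSC of *stau* with 2.72% of its reads (scaffold_13266:10187480-10187502, 1633 bp downstream of the main one) was named after its values were seen. It held 0.245% of 2859 reads at 0-3 hr (0.119 to 0.505%), 6.35% of 3227 reads at 6-10 hr (5.56 to 7.25%) and 0 of 276 reads at 19-22 hr (upper bound 1.37%). The share was 1.20% at 3-6 hr, 3.97% at 10-13 hr, 0.863% at 13-16 hr and 1.19% at 16-19 hr. The 3 libraries of 6-10 hr had 3.81, 9.52 and 6.52%, each above the 3 libraries of 0-3 hr, which had at most 0.663%. With 3.80% at 10-11 hr and 5% at 11-12 hr, such shares were not confined to 6-10 hr. Differences of this kind were not counted over other TSCs. The intervals given for windows pool the reads of a window and cover counting error only.

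**Figure D4:**
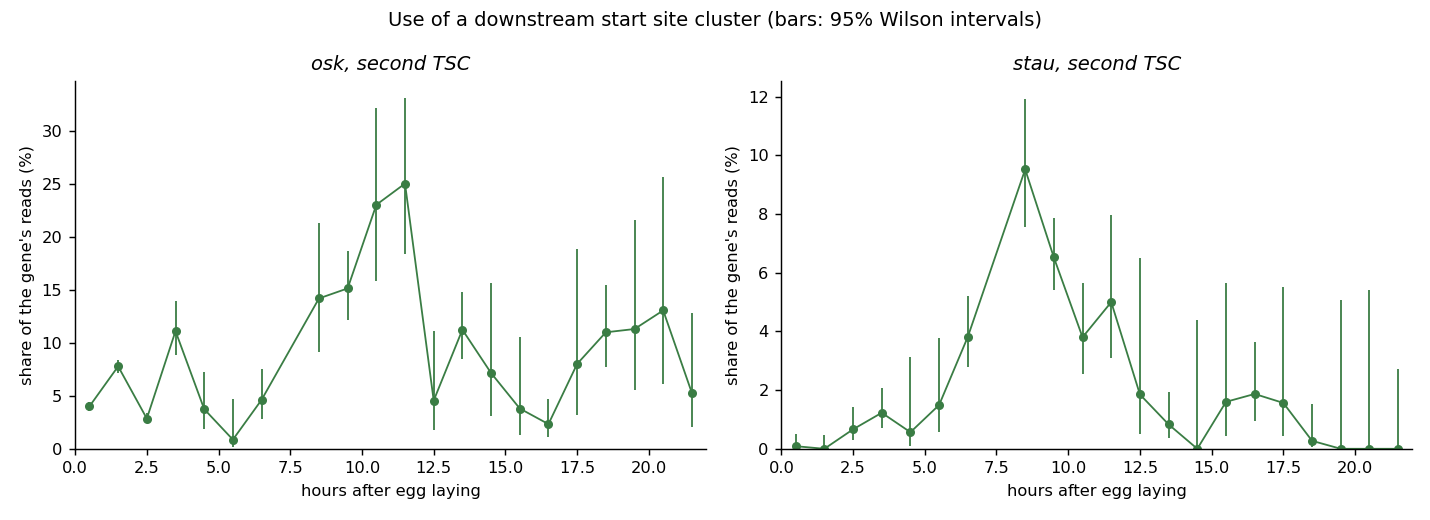
Share of the gene's reads in the second TSC (vertical axis, %) against hours after egg laying for *osk* and *stau*, 1 point per library with 95% Wilson intervals. For *stau* the share is highest at 8-9 hr (9.52%), and for *osk* it scatters between 0.862% and 25%.

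The profiles were compared by Pearson's r of log2(RPM + 1) over the 21 libraries, as a description, since neighbouring ages are not independent. *osk* and *pgc* were most alike (r = 0.96), followed by *osk* and *nos* (0.94) and *pgc* and *nos* (0.93). *bcd* had r between 0.67 and 0.76 with these 3 genes. *tud* was least like the others, with r from -0.23 with *bcd* to 0.43 with *gcl*. Outside the group, the row most like *osk* among 7199 was FBgn0040602 (r = 0.98), and 87 rows had r over 0.9. The row most like *bcd* was FBgn0033762 (r = 0.86), and 0 rows had r over 0.9.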

How the data were processed

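Per the labels and methods, the authors mapped RAMPAGE reads with STAR to the *D. ananassae* r1.3 assembly, called TSCs on the pooled series and attributed them to genes. The deposited gene and TSC tables give RPM. All barcoded samples were pooled and processed as 1 library, and library here means the reads of 1 barcode. RPM values were divided by what 1 read is worth in each column, and 100% came out whole within 0.1 read.

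Groups were taken from the age in the labels. limma 3.58.1 (R 4.3.3) was run on log2(RPM + 1) for the 7207 genes with at least 10 RPM in 1 of 21 libraries, with a natural spline of 4 degrees of freedom or 1 mean per window, with Benjamini-Hochberg adjustment over all genes at 0.05. edgeR 4.0.16 (quasi-likelihood, TMM) on recovered reads was an alternative. Other alternatives were pseudocounts, filters, spline degrees, TMM, the 7-8 hr library, leave-one-out and TSC sums.

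The rule for the members uses names only, but the members and lists were chosen with earlier results of these data known. Named were all 8 genes, the nearest rows of *osk* and *bcd*, and TSCs with at least 5% of a gene's reads. A list of 23 related genes was not used here, since 0 of its identifiers were paired with a name in the reference table. The smoothed gene table and the peak scores were not used here.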

Additional observations from a re-analysis of the deposited data

How the results depend on the processing

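The results depended most on the 7-8 hr library of 600 reads. The paper also excluded this time point, which it reports as failed. In this library 1 read was worth 1667 RPM, so *bcd* stood at 1667 RPM on 1 read and the other members at 0 RPM. With the 7-8 hr library, 4 members changed with time (3233 of all genes) and 2 differed between 0-3 and 3-6 hr (225 genes). Then 0 differed between 3-6 and 6-10 hr (7 genes) and 0 between 6-10 and 19-22 hr (1230 genes). The difference from 3-6 to 6-10 hr then turned to 0.37 for *bcd*, -1.32 for *gcl* and -0.98 for *tud*, and that from 6-10 to 19-22 hr to 1.16 for *osk*, 1.72 for *tud*, 0.25 for *stau* and 1.28 for *BicD*. From 6-10 to 19-22 hr the differences were 0.32 for *osk*, 0.13 for *bcd*, 0.35 for *tud* and 0.17 for *BicD* with TMM normalization, and 0.35, 0.14, 0.35 and 0.14 in edgeR. With a pseudocount of 0.1 RPM, 1 member differed between 3-6 and 6-10 hr (1085 genes). With TSC sums the difference of *stau* from 0-3 to 3-6 hr was -0.0037. Why TMM normalization, edgeR, the pseudocount and TSC sums gave other values was not tested. The count of TSCs was 13 at 100 reads and 10 at 5% of reads, by construction of the stricter minimum.

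With each library left out in turn, 8 members changed with time throughout (6548 to 6725 of all genes). Between 0-3 and 3-6 hr 4 to 6 differed (1652 to 2495 genes), and between 3-6 and 6-10 hr 0 to 3 (106 to 1817 genes). Between 6-10 and 19-22 hr 2 differed (3589 to 4284 genes). The difference of *stau* then ranged from -0.27 to 0.46 (0-3 to 3-6 hr) and from -0.50 to 0.24 (3-6 to 6-10 hr), that of *BicD* from -0.29 to 0.32 (3-6 to 6-10 hr) and that of *osk* from -0.46 to 0.11 (6-10 to 19-22 hr). No paired analysis was possible because there is a single library per age. Depth limits *nos* and *pgc* after 6 hr, which rest on 59 and 108 reads.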

Other observations

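The 7-8 hr library, which entered the comparisons only as an alternative, held 1 read of *bcd* and 0 reads of the other 7 genes among its 600 reads. A count of 1 lies under the limit of detection of 3 reads.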
